A study of Mus musculus with 6 samples.

Results

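Interferon-stimulated genes were examined in intestinal stem cells sorted from the crypts of mice, in libraries labelled control and libraries labelled Klf5-KO. The group is a list of 44 genes, out of 53379 in the count files, chosen by name for their known induction by interferon. Earlier results of these data were known when the list was made. Its genes were matched to the gene IDs of the files by symbol. All 44 had reads in the files and all 44 passed the filter on low counts. They were divided by role into 5 sensors of nucleic acids, 5 enzymes activated by double-stranded RNA, 12 IFIT proteins and other effectors, 9 genes of ISG15, ubiquitin and ADP-ribose modification, 8 GTPases, and 5 transcription factors of the STAT and IRF families.

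RNA was sequenced from 3 control and 3 Klf5-KO libraries of adult C57BL/6 mice, called C1, C2 and C3 (replicates 1 to 3 labelled control) and K1, K2 and K3 (replicates 1 to 3 labelled Klf5-KO) below. The control mice carried Lgr5-EGFP-IRES-CreERT2 and Rosa-tdTomato, and the Klf5-KO mice carried the same alleles with Klf5fl/fl, floxed copies of the gene of a zinc finger transcription factor. All mice, controls included, were given tamoxifen, 1 mg a day for 5 days. In both groups Cre is driven from the Lgr5 locus, so recombination is directed to stem cells and is carried by the cells they give rise to. Cells of the proximal small intestine with the brightest green fluorescence were sorted after a dissociation of 45 minutes. The labels do not say whether each library came from a separate mouse, so p-values measure the spread between libraries, which may be partly technical. By their reads (below) each group held libraries of both sexes, so neither group came from a single mouse. Libraries of the same sex may still share a mouse.

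Each library held 61563625 to 77666540 counts. Klf5 went against the group label, since its counts over the whole gene were 33862 to 39455 in the libraries labelled control and 58956 to 63492 in those labelled Klf5-KO, and a count over all exons cannot show whether the floxed part was lost. Its log2 fold change was 0.80 (SE 0.10, adjusted p = 6.3e-04) by edgeR's quasi-likelihood test. Gene coordinates are those of the count files, in mm10. Every direction given here is that of K1 to K3 relative to C1 to C3, by their labels. The epithelial gene Epcam stood at 1047 to 1099.9 CPM and 939.9 to 1087 CPM (read counts scaled to library size with TMM factors) in the groups, and was not called. Of the other 5 epithelial markers, Cdh1, Krt8 and Krt18 fell (log2 fold changes −0.52, −0.71 and −0.51, adjusted p = 0.0072, 0.0032 and 0.015), Cdx2 rose (0.34, adjusted p = 0.027) and Vil1 was not called. All 6 together summed to 4628, 5004 and 5036 CPM in C1, C2 and C3 and 4072, 3673 and 3906 CPM in K1, K2 and K3. The stem cell gene Lgr5 stood at 128 to 163 and 81.2 to 96.8 CPM. Among markers of other cells, 8 Paneth cell genes summed to 1755, 2252 and 21119 CPM in C1, C2 and C3 and 10102, 9717 and 12058 CPM in K1, K2 and K3, so that C3 stood apart. The 6 stem cell markers summed to 8396, 9362 and 6671 CPM in C1, C2 and C3 and 2916, 2104 and 3367 CPM in K1, K2 and K3, and the 7 enterocyte markers to 712, 614 and 832 CPM in C1, C2 and C3 and 2020.0, 1087 and 1601 CPM in K1, K2 and K3. The epithelial, stem cell and enterocyte sums did not overlap between the groups, and their part in the results was not tested. Most of the stem cell sum came from Olfm4. Of the 6 stem cell markers 5 fell (against 12.5% of all genes) and Tnfrsf19 was not called. Of the 7 enterocyte markers 4 rose (against 13.3% of all genes) and 3, Alpi, Apoa1 and Apoa4, were not called. By Xist and Y-linked genes, C1 and K3 came from males and the rest from females.

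Interferons are secreted proteins that tell cells of infection. Type I interferons (alpha and beta) and type III interferons (lambda, to which epithelium is the main responder) use different receptors but both activate JAK kinases, which lead to the complex ISGF3, with the subunits STAT2 and IRF9, that binds the interferon-stimulated response element (ISRE) in target promoters. Type II interferon (gamma), made by T cells and natural killer cells, acts through the gamma-activated site (GAS) and induces IRF1, which binds ISRE-like sites. The targets include the sensors that detect viral RNA and the effectors that block viruses, and many are expressed at a low level in gut epithelium without infection.

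Upstream sequence was read from RefSeq (GRCm38.p6) for the 36 members with a window in the table, from 250 bases before to 50 bases after the annotated start site. The ISRE core was searched as 2 copies of GAAA with any 2 bases between them, and the GAS core as TTCNNNGAA. Both strands were searched, and overlapping matches were counted apart. An ISRE match lay in the window of 19 of 36 members (52.8%), against 3.99% of 27025 genes in the table and 3.59% of 12020 genes tested here. A GAS match lay in 10 of 36 members (27.8%), against 9.55% of all genes and 8.43% of tested genes. The 200 bases before the start site are shown for 9 members, chosen because they set members that rose (Ifit1, Ifit3, Ifit3b, Ddx60) beside members that fell or were not called and hold an ISRE match (Irgm1, Isg15, Igtp, Irgm2) or a GAS match alone (Irf1). Capitals mark ISRE and GAS matches, and each line ends at the base before the start site.
Ifit1, chr19:34640689-34640888, plus strand: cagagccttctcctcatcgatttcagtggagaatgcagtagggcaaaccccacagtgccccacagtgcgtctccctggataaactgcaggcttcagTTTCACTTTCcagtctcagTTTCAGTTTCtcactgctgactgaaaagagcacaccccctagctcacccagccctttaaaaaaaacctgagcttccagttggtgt
Ifit3, chr19:34583329-34583528, plus strand: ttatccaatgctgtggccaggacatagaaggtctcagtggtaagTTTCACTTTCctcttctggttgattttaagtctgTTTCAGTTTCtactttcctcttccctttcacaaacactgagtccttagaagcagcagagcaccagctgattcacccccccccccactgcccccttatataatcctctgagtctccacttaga
Ifit3b, chr19:34607757-34607956, plus strand: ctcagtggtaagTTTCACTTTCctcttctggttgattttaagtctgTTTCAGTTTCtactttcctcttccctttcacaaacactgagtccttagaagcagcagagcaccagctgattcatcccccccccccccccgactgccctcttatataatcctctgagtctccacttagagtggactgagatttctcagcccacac
Ddx60, chr8:61927887-61928086, plus strand: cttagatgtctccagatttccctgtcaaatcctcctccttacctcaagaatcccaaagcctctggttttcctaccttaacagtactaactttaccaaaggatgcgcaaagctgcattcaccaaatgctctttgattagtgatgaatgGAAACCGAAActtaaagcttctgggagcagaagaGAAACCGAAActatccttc
Isg15, chr4:156200819-156201018, minus strand: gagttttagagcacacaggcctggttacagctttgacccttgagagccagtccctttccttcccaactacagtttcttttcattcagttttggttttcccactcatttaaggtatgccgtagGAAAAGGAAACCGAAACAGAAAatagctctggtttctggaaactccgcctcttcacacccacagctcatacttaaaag
Igtp, chr11:58199356-58199555, plus strand: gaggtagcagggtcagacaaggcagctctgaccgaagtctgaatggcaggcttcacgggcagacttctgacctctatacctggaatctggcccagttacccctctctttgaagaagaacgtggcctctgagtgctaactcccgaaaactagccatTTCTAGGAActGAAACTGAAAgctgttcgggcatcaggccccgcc
Irgm2, chr11:58214777-58214976, plus strand: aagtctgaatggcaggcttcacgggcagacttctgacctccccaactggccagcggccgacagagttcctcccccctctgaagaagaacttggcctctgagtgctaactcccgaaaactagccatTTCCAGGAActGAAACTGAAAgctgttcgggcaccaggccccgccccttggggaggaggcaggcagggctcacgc
Irgm1, chr11:48871421-48871620, minus strand: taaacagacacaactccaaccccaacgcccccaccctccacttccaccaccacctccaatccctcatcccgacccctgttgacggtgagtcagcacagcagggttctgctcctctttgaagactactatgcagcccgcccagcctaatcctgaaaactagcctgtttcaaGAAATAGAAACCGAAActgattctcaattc
Irf1, chr11:53769814-53770013, plus strand: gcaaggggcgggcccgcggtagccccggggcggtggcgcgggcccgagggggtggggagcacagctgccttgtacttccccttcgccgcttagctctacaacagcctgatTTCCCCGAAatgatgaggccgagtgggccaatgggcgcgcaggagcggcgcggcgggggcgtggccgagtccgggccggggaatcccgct

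Ifit1, Ifit3 and Ifit3b each held 2 ISRE matches, and the stretch with both matches was repeated in Ifit3 and Ifit3b. Ddx60 held 2 ISRE matches, and in Isg15 3 overlapping ISRE matches formed 1 block. In Igtp and Irgm2 a GAS match was followed closely by an ISRE match, and Irf1 held a GAS match only. By result, an ISRE match lay in 7 of 13 members that were higher (53.8%), 11 of 21 that were not called (52.4%) and 1 of 2 that were lower (50%). For GAS the counts were 2 of 13, 7 of 21 and 1 of 2. A motif of the form bound by Kruppel-like factors, CCNCNCCC on either strand, lay in 4 of 13 members that were higher, 12 of 21 not called and both that were lower, or 18 of 36 (50%), against 51.9% of all genes and 70.3% of tested genes. These are matches of letters in 1 window per start site and do not show that a protein binds there. RefSeq start sites can differ from those of the annotation used for counting.

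**Figure D1:**
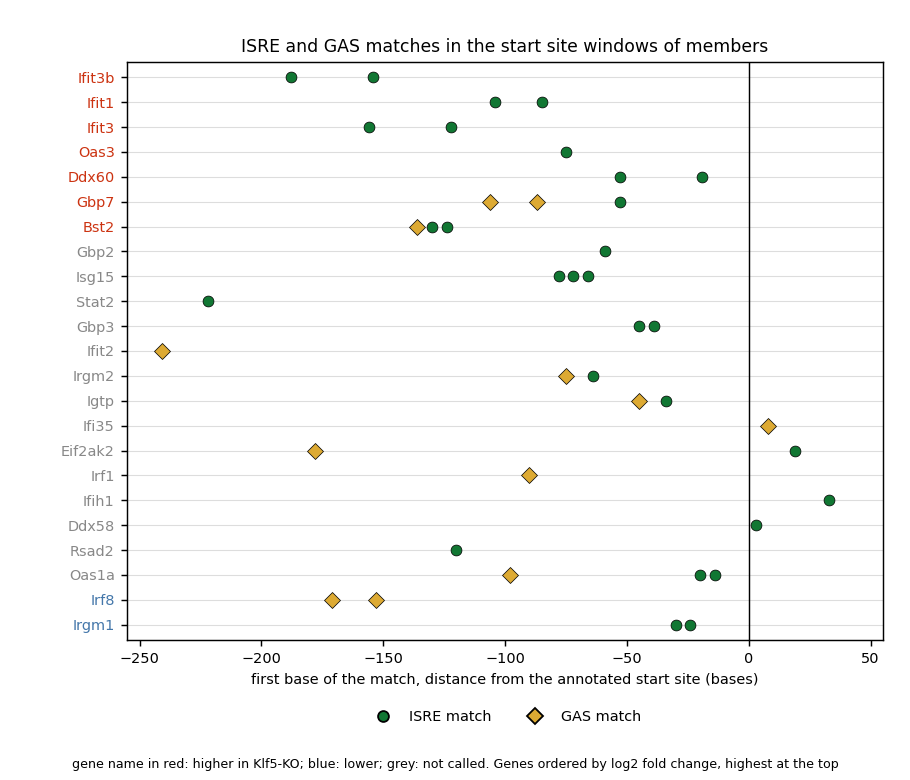
Position of each ISRE match (circles) and GAS match (diamonds) relative to the RefSeq start site (0 on the horizontal axis, in bases), for the members with a match, ordered by log2 fold change with the largest rise at the top. Members that were higher (red names), lower (blue) or not called (grey) were all among those with a match.

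More of the listed interferon-stimulated genes rose than fell. Of the 44 members, 17 rose and 2 fell at an adjusted p under 0.05 (edgeR), and 25 did not pass. The share that rose was 38.6%, where 13.3% of all 19339 genes tested were higher, and the share that fell was 4.55%, where 12.5% of all genes were lower. The median log2 fold change was 0.49 over the members and −0.01 over all genes tested. Because the members were chosen with earlier results of these data known, their excess over all genes is not an independent result. At least a 2-fold rise was called for 9 members, against 5.68% of all genes, and no member fell 2-fold with a call. The groups did not overlap for 25 members: 22 were higher in K1 to K3 (against 22.2% of all genes) and 3 were lower (against 21%). By role, 7 of 12 effectors and 6 of 9 genes of ISG15, ubiquitin and ADP-ribose rose, as did 2 of 5 sensors, 1 of 5 double-stranded RNA enzymes, 1 of 8 GTPases and none of 5 STAT and IRF factors. Differences between the roles were not tested. In sorted cells measured in bulk, fewer cells of a type and less RNA per cell cannot be told apart.

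The count moved with the libraries included, for the members and for all genes. The number of members that rose was 8 without C2, 6 without K1, 10 without K2 and 22 without C1, against 17 with all libraries. Over all genes the number that rose was 1689, 1605, 2036 and 2148 under the same omissions, against 2581 with all libraries. Ifit1, Ifit3b, Samd9l, Ddx60, Parp14 and Rnf213 were called at an adjusted p under 0.05 in each of the 16 alternative fits in which they were tested, including each omission of 1 library. A 2-fold minimum, which is not among these 16, kept the first 4 but not Parp14 (1.901-fold) and Rnf213 (1.53-fold). The lowest value of 29 members was that of C2, against 18.5% of all genes, and the highest value of 17 members was that of K1, against 16.4% of all genes.

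**Figure D2:**
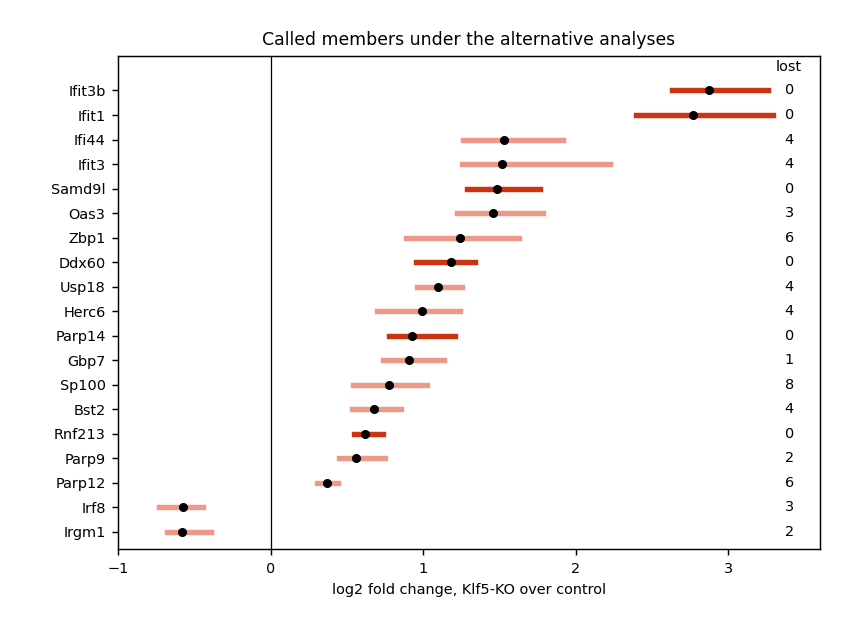
Log2 fold change of the 19 called members (black points) with the range over the 16 alternative fits (bars), and at the right the number of these fits in which the call was lost. The 6 members in dark red were called at an adjusted p under 0.05 in each of these fits in which they were tested, and no called member changed sign.

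**Figure D3:**
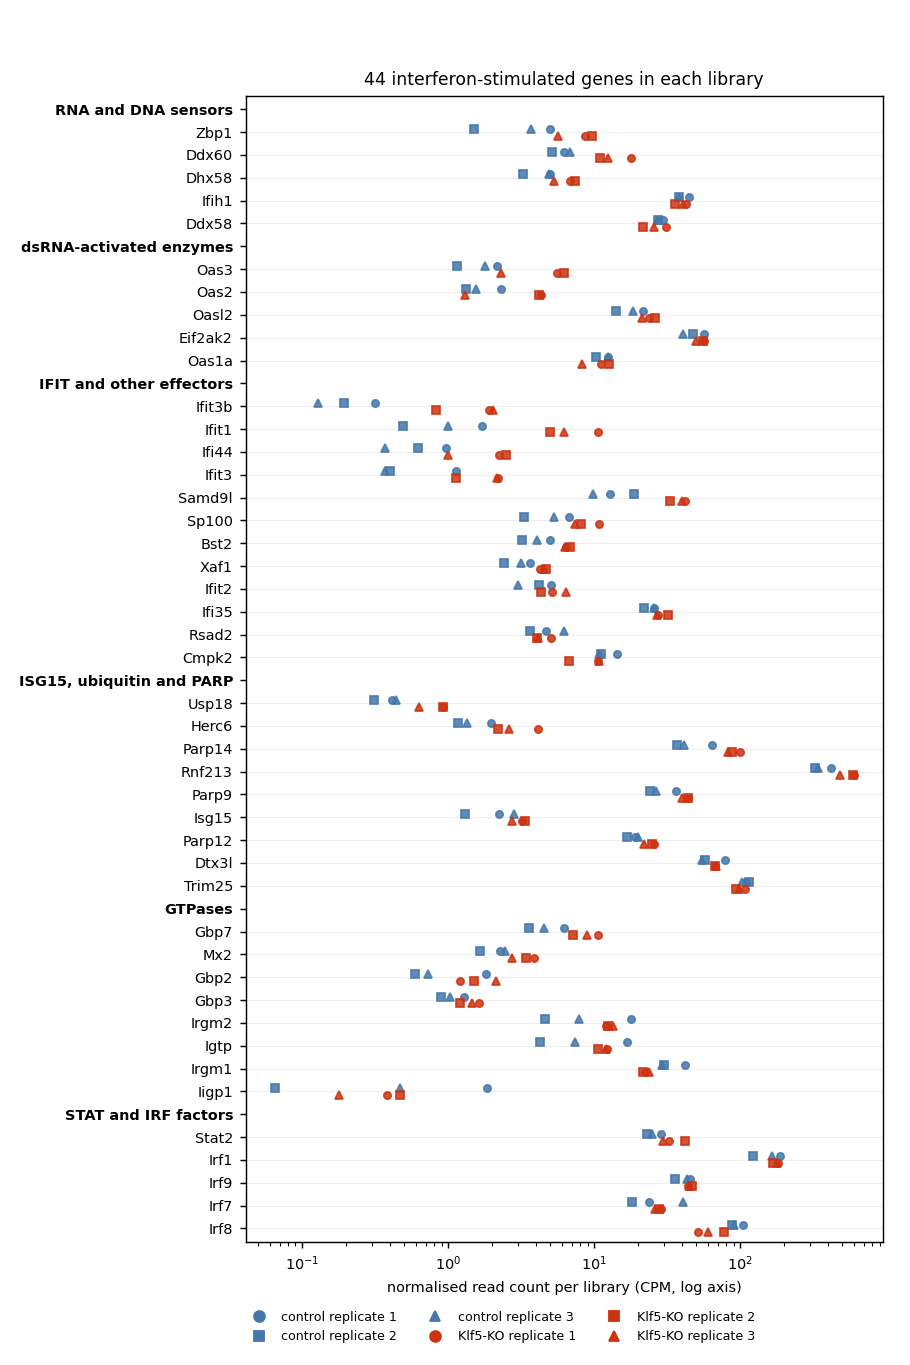
Normalised read count (CPM, log axis) of each of the 44 members in each library, grouped by role, with libraries labelled control in blue and those labelled Klf5-KO in red and 1 symbol per replicate number. Ifit3b, Ifit1 and Samd9l showed a gap between the groups, while the groups overlapped for Ddx58, Ifih1, Irf7 and Irf9.

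**Figure D4:**
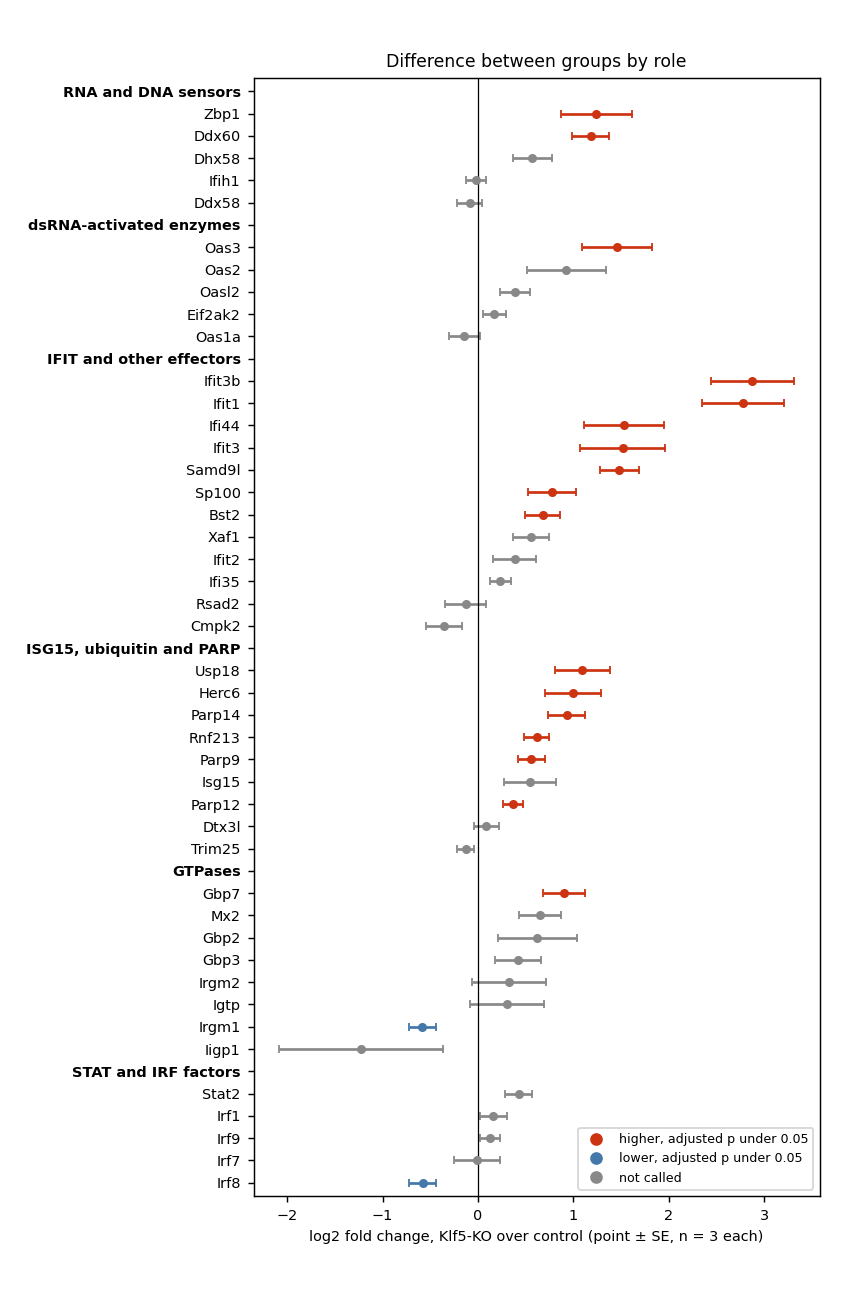
Log2 fold change of each member, Klf5-KO over control as labelled, with its SE (horizontal bars, n = 3 libraries each), grouped by role. Red points rose, blue points fell and grey points were not called, and Ifit3b and Ifit1 lay furthest to the right at 2.87 and 2.77.

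Among the sensors, the helicase gene Ddx60 and the Z-form nucleic acid sensor gene Zbp1 rose, while the classical RNA sensors did not pass. Ddx60, whose product is a helicase linked to RIG-I signalling (chromosome 8, 61928087 to 62038244), was measured at 6.16, 5.14 and 6.83 CPM in C1, C2 and C3 and 17.8, 10.9 and 12.3 CPM in K1, K2 and K3. The groups did not overlap, and the rise was 2.27-fold (log2 fold change 1.18, adjusted p = 0.0025, SE 0.19). Zbp1 (chromosome 2, 173206612 to 173218923) stood at 4.95, 1.504 and 3.66 CPM in C1, C2 and C3 and 8.57, 9.66 and 5.64 CPM in K1, K2 and K3. C2 was the lowest, and the groups did not overlap (log2 fold change 1.24, adjusted p = 0.037, SE 0.37). The Zbp1 call was lost with DESeq2 (adjusted p = 0.059), with robust dispersion (0.066), with sex as a covariate (0.051), and on omission of C3 (adjusted p = 0.060), K1 (0.11) or K2 (0.11). Ifih1, the gene of MDA5, which detects long double-stranded RNA, had the highest level per length of the sensors, at 4.92 CPM per kilobase of exon in the controls, and stood at 44.5, 37.9 and 38.04 CPM in C1, C2 and C3 and 42.8, 35.5 and 40.4 CPM in K1, K2 and K3. Its groups overlapped (log2 fold change −0.02, adjusted p = 0.90, SE 0.10). Ddx58, the gene of RIG-I, stood at 27.1 to 29.3 CPM in C1 to C3 and 21.7 to 31.1 CPM in K1 to K3 (log2 fold change −0.09, adjusted p = 0.66, SE 0.13). Dhx58, the gene of LGP2, which modulates both of those sensors, was measured at 5.002, 3.26 and 4.87 CPM in C1, C2 and C3 and 6.85, 7.32 and 5.304 CPM in K1, K2 and K3. Each Klf5-KO value exceeded each control value, but the difference did not pass (log2 fold change 0.57, adjusted p = 0.070, SE 0.21).

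Of the enzymes activated by double-stranded RNA, only the oligoadenylate synthetase gene Oas3 passed the test. These synthetases make short adenylate chains that activate RNase L, and Eif2ak2 encodes PKR, a kinase that halts translation. Oas3 (chromosome 5, 120753098 to 120777661) stood at 2.17, 1.15 and 1.79 CPM in C1, C2 and C3 and 5.54, 6.18 and 2.31 CPM in K1, K2 and K3. K3 lay close to the highest control (log2 fold change 1.45, adjusted p = 0.019, SE 0.37), and the call was lost on omission of C2 (adjusted p = 0.065), K1 (0.071) or K2 (0.064). Oas2 showed the same unevenness, at 2.295, 1.32 and 1.55 CPM in C1, C2 and C3 and 4.34, 4.21 and 1.298 CPM in K1, K2 and K3, and K3 was below all controls (log2 fold change 0.93, adjusted p = 0.13, SE 0.42). Eif2ak2, the highest of these genes per length, was measured at 56.1, 47.4 and 40.2 CPM in C1, C2 and C3 and 56.6, 55.8 and 49.4 CPM in K1, K2 and K3, with overlapping groups (log2 fold change 0.17, adjusted p = 0.34, SE 0.12). Oasl2 and Oas1a had log2 fold changes of 0.39 (adjusted p = 0.095) and −0.14 (adjusted p = 0.56). Of the 50-base stretches in Oas1a transcripts, 57.6% also occur in Oas1g, so its count is uncertain.

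The effectors held the largest rises. Ifit1, Ifit3 and Ifit3b encode proteins with tetratricopeptide repeats, of which IFIT1 binds the caps of foreign RNA, and they lie with Ifit2 in a cluster on chromosome 19 between 34550694 and 34650009. Ifit1 (ENSMUSG00000034459.8, chromosome 19, 34640871 to 34650009) was measured at 1.69, 0.493 and 1.001 CPM in C1, C2 and C3 and 10.6, 4.95 and 6.19 CPM in K1, K2 and K3. All Klf5-KO values lay above all controls, the difference was 6.83-fold (log2 fold change 2.77, adjusted p = 0.0018, SE 0.43), and K1 was the highest. Ifit3b (chromosome 19, 34607970 to 34613401) stood at 0.316, 0.195 and 0.129 CPM in C1, C2 and C3 and 1.91, 0.826 and 2.02 CPM in K1, K2 and K3. It was barely detected in the controls, where 3 counts correspond to 0.0389 to 0.0484 CPM, and rose 7.32-fold (log2 fold change 2.87, adjusted p = 0.0017, SE 0.44). Its near-identical neighbour Ifit3 (chromosome 19, 34583531 to 34588731) was measured at 1.13, 0.402 and 0.371 CPM in C1, C2 and C3 and 2.18, 1.14 and 2.14 CPM in K1, K2 and K3. K2 lay just above C1 (log2 fold change 1.51, adjusted p = 0.033, SE 0.44), and the call was lost on omission of C2 (adjusted p = 0.10), C3 (0.072), K1 (0.11) or K3 (0.099). Of the 50-base stretches in Ifit3 transcripts, 51.2% also occur in Ifit3b. Reads that match both equally would go uncounted, since no option was set to count reads mapped to several places. Ifit2, which shares no such stretch with another gene, stood at 2.99 to 5.03 CPM in C1 to C3 and 4.31 to 6.42 CPM in K1 to K3 (log2 fold change 0.38, adjusted p = 0.25, SE 0.23).

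Samd9l, whose product restricts viruses and slows cell growth (chromosome 6, 3372257 to 3399572), was the member with the smallest adjusted p. It stood at 12.8, 18.6 and 9.796 CPM in C1, C2 and C3 and 42.04, 32.9 and 40.01 CPM in K1, K2 and K3, a 2.79-fold rise with a wide gap between the groups (log2 fold change 1.48, adjusted p = 0.0011, SE 0.21). Bst2, the gene of tetherin, which holds budding virus particles at the cell surface (chromosome 8, 71534255 to 71537456), was measured at 4.97, 3.18 and 4.03 CPM in C1, C2 and C3 and 6.35, 6.87 and 6.28 CPM in K1, K2 and K3. The Klf5-KO values were close to each other and above the controls (log2 fold change 0.68, adjusted p = 0.024, SE 0.18), and the call was lost on omission of C2 (adjusted p = 0.066), K1 (0.064), K2 (0.062) or K3 (0.060). Ifi44 and Sp100, a component of PML nuclear bodies, rose by 1.53 and 0.78 on the log2 scale (adjusted p = 0.025 and 0.048), respectively. The Ifi44 call was lost on omission of C2 (adjusted p = 0.073), C3 (0.052), K1 (0.086) or K2 (0.080). That of Sp100 was lost on omission of C2 (adjusted p = 0.10), C3 (0.076), K1 (0.17), K2 (0.078) or K3 (0.064), and also with upper-quartile scaling (0.055), a stricter filter (0.057) and sex as a covariate (0.060). Ifi35, the effector with the highest level per length (14.1 CPM per kilobase in the controls), was measured at 25.7, 21.7 and 25.8 CPM in C1, C2 and C3 and 27.1, 32.2 and 26.8 CPM in K1, K2 and K3. Its groups did not overlap, though the difference was small and not called (log2 fold change 0.23, adjusted p = 0.16, SE 0.11). Xaf1, an antagonist of the apoptosis inhibitor XIAP, was measured at 3.63, 2.41 and 3.15 CPM in C1, C2 and C3 and 4.24, 4.67 and 4.54 CPM in K1, K2 and K3, again without overlap and without a call (log2 fold change 0.55, adjusted p = 0.059, SE 0.19). Rsad2, the gene of viperin, and its neighbour Cmpk2, a nucleotide kinase, were not called, with log2 fold changes of −0.13 (adjusted p = 0.69) and −0.36 (adjusted p = 0.21).

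Of the genes that modify proteins with ISG15, ubiquitin or ADP-ribose, 6 of 9 rose, all but Usp18 by less than 2-fold. Rnf213, a very large ubiquitin ligase with an ATPase core (chromosome 11, 119393100 to 119487418), had the highest level per length of these genes (21.4 CPM per kilobase in the controls). It stood at 419.5, 325 and 342 CPM in C1, C2 and C3 and 597, 588 and 481 CPM in K1, K2 and K3, without overlap (log2 fold change 0.62, adjusted p = 0.0085, SE 0.13). Parp14, an ADP-ribosyltransferase (chromosome 16, 35832874 to 35871544), was measured at 64.2, 36.6 and 41.2 CPM in C1, C2 and C3 and 100.1, 88.04 and 81.9 CPM in K1, K2 and K3. C1 was the highest control, and all Klf5-KO values lay above it (log2 fold change 0.93, adjusted p = 0.0071, SE 0.19). Parp9, which works with the ubiquitin ligase DTX3L (chromosome 16, 35938470 to 35972605), stood at 36.02, 24.1 and 26.5 CPM in C1, C2 and C3 and 44.03, 43.5 and 40.01 CPM in K1, K2 and K3 (log2 fold change 0.56, adjusted p = 0.019, SE 0.14). The call was lost on omission of C2 (adjusted p = 0.053) or K1 (0.068). Dtx3l itself, transcribed from the opposite strand beside Parp9, overlapped between the groups at 54.9 to 78.3 CPM and 66.7 to 68.4 CPM (log2 fold change 0.08, adjusted p = 0.67, SE 0.13). Parp12 rose by 0.37 on the log2 scale (adjusted p = 0.031), and its call was lost with sex as a covariate (adjusted p = 0.050), and on omission of C1 (adjusted p = 0.058), C2 (0.13), K1 (0.13) or K2 (0.088).

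Usp18 removes ISG15 from proteins and dampens signalling at the type I receptor (chromosome 6, 121245906 to 121270917). It was measured at 0.412, 0.311 and 0.436 CPM in C1, C2 and C3 and 0.9202, 0.919 and 0.635 CPM in K1, K2 and K3, a low level without overlap (log2 fold change 1.09, adjusted p = 0.023, SE 0.29). Its call was lost on omission of C2 (adjusted p = 0.078), K1 (0.083) or K2 (0.067). Herc6, the main ISG15 ligase of mice, rose by 0.99 on the log2 scale (adjusted p = 0.034), a call lost on omission of C2 (adjusted p = 0.10), C3 (0.068), K1 (0.13) or K3 (0.061). Isg15 itself, the ubiquitin-like modifier, was measured at 2.24, 1.297 and 2.82 CPM in C1, C2 and C3 and 3.21, 3.33 and 2.72 CPM in K1, K2 and K3. K3 lay below C3, and the difference was not called (log2 fold change 0.55, adjusted p = 0.17, SE 0.27). It was called without C3 (adjusted p = 0.049). Trim25, a ubiquitin ligase known for its part in RIG-I signalling, was abundant and overlapped between the groups, at 103 to 115 CPM and 93.4 to 108 CPM (log2 fold change −0.13, adjusted p = 0.31, SE 0.09).

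Of the GTPases, 1 rose (12.5%, against 13.3% of all genes tested), 1 fell (12.5%, against 12.5%) and 6 did not pass. These shares were near those of all genes. Guanylate-binding proteins (Gbp) and immunity-related GTPases (Igtp, Irgm1, Irgm2, Iigp1) are induced most strongly by interferon gamma and attack the vacuoles of intracellular microbes. Gbp7 (chromosome 3, 142530342 to 142550149) rose, at 6.17, 3.58 and 4.55 CPM in C1, C2 and C3 and 10.7, 7.17 and 8.91 CPM in K1, K2 and K3 (log2 fold change 0.90, adjusted p = 0.016, SE 0.22), and the call was lost on omission of K1 (adjusted p = 0.070). Irgm1, a regulator of the other immunity-related GTPases and of autophagy (chromosome 11, 48861968 to 48871683), fell, at 42.1, 29.9 and 29.1 CPM in C1, C2 and C3 and 22.1, 21.6 and 23.7 CPM in K1, K2 and K3. The groups did not overlap (log2 fold change −0.58, adjusted p = 0.016, SE 0.14), and the call was lost on omission of K1 (adjusted p = 0.065) or K2 (0.061). Irgm1 also had the highest level per length of the GTPases, 5.799 CPM per kilobase in the controls. Mx2, Gbp2 and Gbp3 had log2 fold changes of 0.65 (adjusted p = 0.055), 0.62 (adjusted p = 0.30) and 0.42 (adjusted p = 0.24).

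Among the controls, Igtp, Irgm2 and Iigp1 were high in C1 alone. Igtp (chromosome 11, 58199556 to 58207591) was measured at 16.6, 4.23 and 7.41 CPM in C1, C2 and C3 and 12.3, 10.6 and 12.03 CPM in K1, K2 and K3, and Irgm2 at 17.8, 4.604 and 7.88 CPM in C1, C2 and C3 and 12.02, 12.5 and 13.5 CPM in K1, K2 and K3. For both, C1 was the highest of all libraries and C2 the lowest, with the Klf5-KO libraries close together in between. Neither was called, at log2 fold changes of 0.30 (adjusted p = 0.60) and 0.32 (adjusted p = 0.57). The genes share 162 exon bases on 1 strand, which reads could not be assigned to either, so their counts are not fully separate measurements. Iigp1 had the same order among the controls, at 1.86, 0.0648 and 0.468 CPM in C1, C2 and C3 and 0.3798, 0.467 and 0.1796 CPM in K1, K2 and K3 (log2 fold change −1.22, adjusted p = 0.33, SE 0.86). Without C1, Igtp (log2 fold change 1.00, adjusted p = 0.016), Irgm2 (log2 fold change 1.02, adjusted p = 0.012) and Gbp2 (log2 fold change 1.29, adjusted p = 0.023) were called higher, while Iigp1 was not called and its sign turned (log2 fold change 0.40, adjusted p = 0.74).

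The summed markers of T cells and intraepithelial lymphocytes were also highest in C1. These 11 markers reached 26.8, 7.37 and 15.5 CPM in C1, C2 and C3 and 13.1, 9.13 and 11.7 CPM in K1, K2 and K3. Gzma, the gene of a granule protease of cytotoxic lymphocytes, stood at 9.73, 0.882 and 4.03 CPM in C1, C2 and C3 and 3.84, 2.49 and 3.83 CPM in K1, K2 and K3, and Cd3e, a subunit of the T cell receptor complex, at 1.33, 0.182 and 0.742 CPM in C1, C2 and C3 and 0.497, 0.389 and 0.345 CPM in K1, K2 and K3. C2 was the lowest library for both of these genes, as it was for Igtp, Irgm2 and Iigp1. It was also the lowest for 29 of the 44 members, against 18.5% of all genes, so a low C2 was common across the list. Of these 11 markers 9 were tested, and 1, Cd4, fell. Of the tested markers, 7 were highest in C1 and 2, Cd3g and Trdc, in C3. The lowest library was C2 for 7 of them and K2 for 2, Itgae and Cd4. The part of these cells in the values of the GTPases was not tested. The order among the controls, C1 highest, then C3, then C2, was not particular to these GTPases. Members of other roles had it too, among them Ifit1, Zbp1, Rnf213 and Parp14. Outside the list it was seen in Nlrc5, the activator of MHC class I genes. Nlrc5 stood at 64.1, 11.9 and 23.5 CPM in C1, C2 and C3 and 38.8, 53.2 and 28.96 CPM in K1, K2 and K3. The GTPase gene Tgtp2 had this order too. It stood at 7.94, 0.791 and 1.76 CPM in C1, C2 and C3 and 5.84, 2.85 and 5.98 CPM in K1, K2 and K3. Nlrc5 and Tgtp2 were singled out after their values were seen, and both were called higher without C1 (log2 fold change 1.19, adjusted p = 0.028 and log2 fold change 1.95, adjusted p = 0.013).

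**Figure D5:**
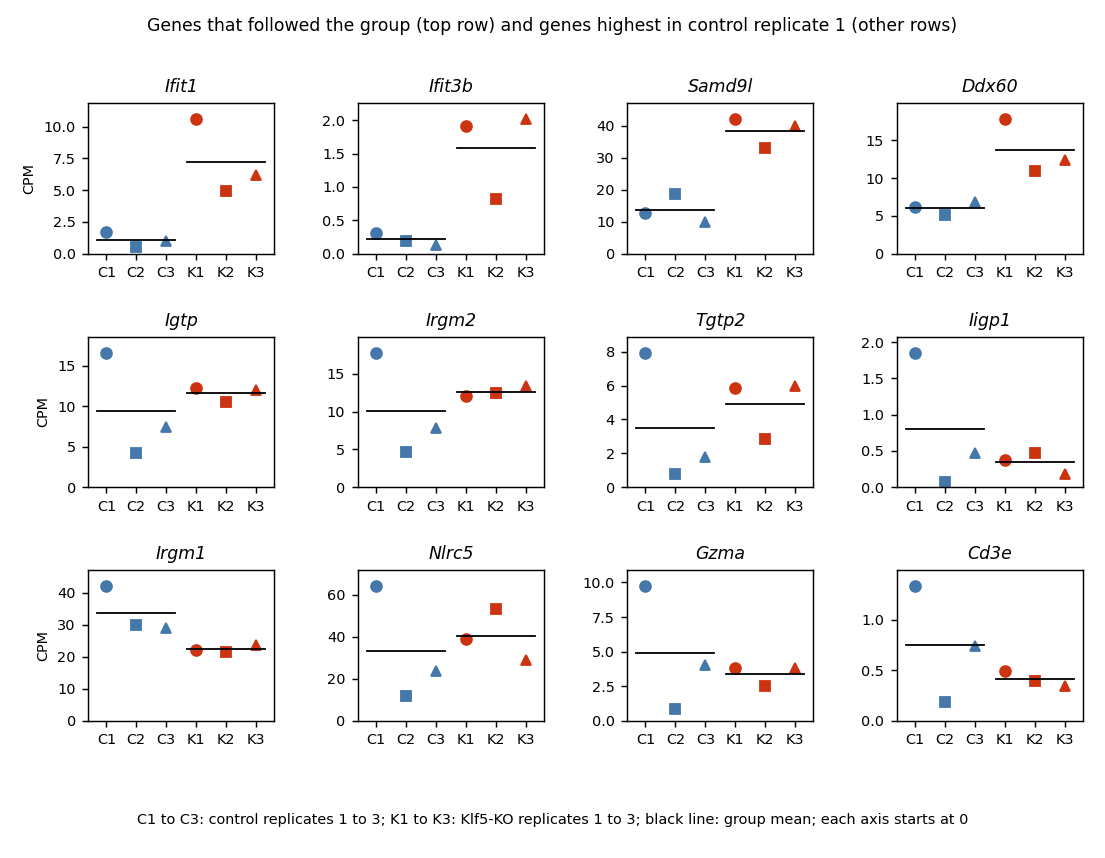
Normalised read count (CPM, each axis starting at 0) in the 3 libraries labelled control (C1 to C3, blue) and the 3 labelled Klf5-KO (K1 to K3, red), with the mean of each group as a black line. In the top row all Klf5-KO values lay above all controls, whereas the GTPases, Nlrc5 and the lymphocyte genes Gzma and Cd3e below were highest in C1.

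None of the STAT and IRF factors among the members rose, and Irf8 fell. Irf8, a factor of the IRF family known best from myeloid and B cells (chromosome 8, 120736358 to 120756694), was measured at 103, 87.7 and 91.1 CPM in C1, C2 and C3 and 51.2, 77.4 and 60.4 CPM in K1, K2 and K3. K1 to K3 all lay below C1 to C3 (log2 fold change −0.58, adjusted p = 0.017, SE 0.14), and the call was lost on omission of C1 (adjusted p = 0.052), K1 (0.057) or K3 (0.065). The 10 myeloid markers summed to 23.2, 18.3 and 34.2 CPM in C1, C2 and C3 and 20.4, 22.2 and 23.5 CPM in K1, K2 and K3, mostly from Cd68. Of these, 6 were tested and none passed (none at an unadjusted p under 0.05), and Csf1r did not exceed 0.1099 CPM in any library. Of the B and plasma cell markers 3 were tested: Cd79b fell (log2 fold change −1.34, adjusted p = 0.0051), while Cd79a (−0.22) and Jchain (1.35) were not called. Of 5 markers of leukocytes in general, Lcp1 fell (log2 fold change −1.29, adjusted p = 3.9e-04), Rac2 rose (1.04, adjusted p = 0.012) and 3 were not called, among them Ptprc, the gene of CD45 (0.78, adjusted p = 0.091). These 5 summed to 45.4, 49.6 and 51.5 CPM in C1, C2 and C3 and 28.1, 32.3 and 23.8 CPM in K1, K2 and K3, most of it from Lcp1. The part of such cells in the result for Irf8 was not tested.

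Irf1, the member with the highest level per length (39.6 CPM per kilobase in the controls), was measured at 185, 122 and 165 CPM in C1, C2 and C3 and 182, 168 and 179 CPM in K1, K2 and K3. C2 was low and the other 5 libraries overlapped (log2 fold change 0.16, adjusted p = 0.43, SE 0.14). Stat2, a subunit of ISGF3, stood at 28.8, 23.04 and 25.00 CPM in C1, C2 and C3 and 32.3, 41.5 and 29.4 CPM in K1, K2 and K3. The groups did not overlap and the difference fell just short of the threshold (log2 fold change 0.42, adjusted p = 0.052, SE 0.14). Stat2 passed in 5 of the 16 alternative fits, among them DESeq2 (adjusted p = 0.022) and omission of C1 (0.043). Irf9, the DNA-binding subunit of ISGF3, and Irf7, which amplifies the type I response, were not called, with log2 fold changes of 0.12 (adjusted p = 0.41) and −0.01 (adjusted p = 0.98). Irf7 varied among the controls from 18.2 to 40.7 CPM, with C3 the highest of all libraries.

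The members were also divided by level. Of the 20 members whose level per length, averaged over both groups, was under 2 CPM per kilobase, 11 rose and none fell, against 12.1% of all tested genes at that level that rose. Of the 24 members at or above that level, 6 rose and 2 fell, against 14.4% that rose among all genes. The median log2 fold change was 0.92 in the lower and 0.20 in the higher group of members, and −0.03 and 0.00 over all tested genes at those levels. Samd9l was the only 2-fold rise in the higher group. The cut at 2 CPM per kilobase was chosen after the levels were seen, and the difference between the level groups was not tested.

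Genes of the interferon pathway outside the list were examined by role. Their lists, too, were chosen with earlier results of these data known. The 21 interferon genes were at the limit of detection: none passed the filter, 5 had no read in any library, and the highest value of any of them was 0.131 CPM, for Ifnab. Of 21 genes of the receptors, kinases, STATs and their regulators, 5 rose (23.8%, against 13.3% of all genes tested). In the same list 1 fell (4.76%, against 12.5%), and the median log2 fold change was 0.11. Ifnlr1, the specific chain of the receptor for type III interferons (chromosome 4, 135686287 to 135708181), was measured at 7.67, 6.94 and 7.81 CPM in C1, C2 and C3 and 15.7, 16.4 and 14.9 CPM in K1, K2 and K3, a 2.09-fold rise (log2 fold change 1.07, adjusted p = 2.1e-04, SE 0.11). The spread within each group was small beside the gap between them. The Ifnlr1 call held on omission of each library. Its partner chain Il10rb stood at 12.5 to 14.4 and 14.2 to 15.3 CPM (log2 fold change 0.11, adjusted p = 0.47, SE 0.10).

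Of the type I receptor chains, Ifnar2 rose, at 6.73, 7.24 and 7.38 CPM in C1, C2 and C3 and 11.5, 12.3 and 9.06 CPM in K1, K2 and K3 (log2 fold change 0.62, adjusted p = 0.012, SE 0.14). Its call was lost on omission of K1 (adjusted p = 0.052). Ifnar1 did not pass, at 43.3, 44.3 and 39.6 CPM in C1, C2 and C3 and 40.9, 40.7 and 38.7 CPM in K1, K2 and K3 (log2 fold change −0.08, adjusted p = 0.51, SE 0.08). The chains of the interferon gamma receptor, Ifngr1 and Ifngr2, had log2 fold changes of 0.18 (adjusted p = 0.32) and −0.15 (adjusted p = 0.43). Ptpn2, a phosphatase that acts on JAK1, had the smallest adjusted p of these genes, at 41.6, 45.5 and 42.5 CPM in C1, C2 and C3 and 95.6, 89.6 and 86.4 CPM in K1, K2 and K3 (log2 fold change 1.07, adjusted p = 5.1e-05, SE 0.08). Stat3, which serves cytokines such as interleukin 22, rose, at 59.7 to 83.9 CPM in C1 to C3 and 113 to 160.3 CPM in K1 to K3 (log2 fold change 0.93, adjusted p = 0.0028, SE 0.16). Named because the counts are small, Jak1 was the fifth gene that rose, by 0.30 on the log2 scale (adjusted p = 0.041), and Irf5 the 1 that fell, by 1.14 (adjusted p = 0.035). The Jak1 call was lost on omission of C1 (adjusted p = 0.073), C2 (0.076), C3 (0.071), K1 (0.13) or K2 (0.10), and that of Irf5 on omission of C2 (adjusted p = 0.10), C3 (0.067), K2 (0.11) or K3 (0.11).

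Of 55 tested genes among 58 other interferon-stimulated genes, 15 rose (27.3%, against 13.3% of all genes tested). In this list 4 fell (7.27%, against 12.5%), and the median log2 fold change was 0.33. The number that rose was 8 both without C2 and without K1. Ifi27 was measured at 6.95, 8.33 and 9.59 CPM in C1, C2 and C3 and 27.8, 24.4 and 26.4 CPM in K1, K2 and K3 (log2 fold change 1.66, adjusted p = 5.6e-05, SE 0.13), and its relative Ifi27l2b at 62.7, 61.4 and 72.3 CPM in C1, C2 and C3 and 222, 139 and 175 CPM in K1, K2 and K3 (log2 fold change 1.45, adjusted p = 2.8e-04, SE 0.16). Cxcl10, the gene of a chemokine that attracts T cells, stood at 9.45, 5.23 and 8.34 CPM in C1, C2 and C3 and 25.8, 21.7 and 22.4 CPM in K1, K2 and K3 (log2 fold change 1.60, adjusted p = 5.6e-04, SE 0.20). Slfn2, of the Schlafen family, stood at 2.75, 2.63 and 2.61 CPM in C1, C2 and C3 and 7.74, 16.3 and 8.66 CPM in K1, K2 and K3, with K2 the highest (log2 fold change 2.03, adjusted p = 8.2e-04, SE 0.27). In each of these 4 genes the groups did not overlap. The 4 that fell were Lgals9, Lgals3bp, Tor3a and Slfn9, by 0.72, 0.49, 0.75 and 0.67 on the log2 scale (adjusted p = 0.0016, 0.0026, 0.0035 and 0.045). The Slfn9 call was lost on omission of C1 (adjusted p = 0.13), C2 (0.14), K1 (0.11), K2 (0.14) or K3 (0.099).

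Genes listed for nucleic acid sensing and its regulation, not all of which start an interferon response, moved in both directions. Of 24 tested of 26 listed, 5 rose (20.8%, against 13.3% of all genes tested) and 6 fell (25%, against 12.5%). The median log2 fold change was 0.01. The number that rose was 3 both without C2 and without K1. Tbk1, a kinase that activates IRF3, rose, at 63.5, 55.5 and 59.8 CPM in C1, C2 and C3 and 96.7, 108 and 85.1 CPM in K1, K2 and K3 (log2 fold change 0.69, adjusted p = 0.0016, SE 0.10). Its relative Ikbke fell, at 60.6, 53.5 and 63.9 CPM in C1, C2 and C3 and 38.8, 31.2 and 39.3 CPM in K1, K2 and K3 (log2 fold change −0.70, adjusted p = 0.0023, SE 0.11). Samhd1, which degrades deoxynucleotides, rose, at 54.7, 53.5 and 51.2 CPM in C1, C2 and C3 and 78.6, 78.6 and 75.02 CPM in K1, K2 and K3 (log2 fold change 0.54, adjusted p = 0.0012, SE 0.08). Nlrp6, a sensor of the gut epithelium, fell, at 386 to 462 CPM in C1 to C3 and 155 to 215 CPM in K1 to K3 (log2 fold change −1.20, adjusted p = 3.4e-04, SE 0.13). Tmem173, the gene of STING, and Cgas, which produces the messenger that activates STING, moved in opposite directions, with log2 fold changes of 1.13 (adjusted p = 0.020) and −0.79 (adjusted p = 0.012). The Tmem173 call was lost on omission of C2 (adjusted p = 0.070). They were named after their values were seen. Mavs, the adaptor of RIG-I and MDA5, stood at 29.3 to 36.6 and 33.2 to 38.8 CPM (log2 fold change 0.10, adjusted p = 0.52, SE 0.11).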

How the data were processed

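RNA was sequenced from 3 libraries labelled control and 3 labelled Klf5-KO. The authors deposited raw read counts for each gene, with its exon length in bases, which served for levels per kilobase. Per the submitters' processing notes, STAR 2.5.2a and the build mm10 were used. Per the file headers, featureCounts 1.4.3-p1 assigned reads to GENCODE vM16 genes in the reverse strand mode, without options for read pairs or reads mapped to several places.

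GENCODE vM21 gave symbols for 53274 of 53379 IDs. In edgeR 4.0.16 (R 4.3.3), filterByExpr left 19339 genes, TMM factors scaled the libraries, and the quasi-likelihood F test compared the 2 groups with no covariate. Adjustment was by Benjamini and Hochberg across these genes, with a threshold of 0.05. The SE is the absolute log2 fold change divided by the square root of F. The biological coefficient of variation was 17.0%. Detection floors of 3 counts cover counting error only. The test was checked on simulated counts.

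No pair of libraries was a duplicate, the smallest chi-square over its degrees of freedom being 40.3. Replicate numbers did not pair the libraries. Alternatives were other scalings and filters, DESeq2 1.42.0, limma-voom (limma 3.58.1), robust dispersion, a replicate block, sex as a covariate, removal of ribosomal RNA-like and mitochondrial genes, a 2-fold minimum and omission of each library. Shared 50-base stretches were searched in GENCODE vM21 transcripts.

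The members and lists were chosen with earlier results of these data known. Values per library are given, in each role, for the called members of smallest adjusted p (at most 4), the member with the highest level per length in controls and the uncalled member with the largest change, and for Ifit3 with Ifit3b and Irgm2 with Igtp. From the other lists they are given for up to 4 called genes with the smallest adjusted p and the interferon receptors. Some genes of these lists are not reported here.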

Additional observations from a re-analysis of the deposited data

How the results depend on the processing

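Of the 19 called members, 6 were called in each of the 16 alternative fits in which they were tested, which do not include the 2-fold minimum, and 13 lost the call in at least 1, while 10 of the 25 uncalled members passed in at least 1. Besides those named above, the uncalled members that passed in some fit were Xaf1 (4 fits), Mx2 (3) and Dhx58, Oas2 and Oasl2 (2 each). No called member changed sign in any of the 16 fits. Leaving out 1 library at a time, 6 to 22 members rose and 0 to 2 fell, and the median log2 fold change of the members was 0.35 to 0.68. Over all genes the counts were 1605 to 2740 higher and 1467 to 2664 lower. Requiring a 2-fold change left 9 members that rose and 0 that fell, and removed Parp14 and Rnf213 from those 6. For receptors and JAK-STAT genes, omissions gave 3 to 5 that rose and 0 to 1 that fell. The count that fell was 2 with upper-quartile scaling and 0 with the stricter filter of over 1 CPM in at least 3 libraries. Omissions gave 8 to 19 other interferon-stimulated genes that rose, and 3 to 6 nucleic acid sensing genes that rose. The cause of these shifts was not tested.

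With the replicate number as a block, 15 members rose and 2 fell, the calls of Parp12 (adjusted p = 0.057) and Usp18 (0.052) being lost, and no receptor or JAK-STAT gene fell (0). Libraries with the same number did not deviate together, at correlations of −0.03, 0.02 and −0.04 for replicates 1, 2 and 3, so the block has no basis in the labels. Depth limits the lowest members: Ifit3b and Usp18 rested on few reads in the controls.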
